A study of Homo sapiens with 6 samples.

Results

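RNA of 8 chemokine and inflammatory cytokine genes was followed in NB4 cells treated with ATPR. The genes were CCL2, CCL20, CXCL8, CXCL1, CXCL2, CXCL10, IL1B and IL6, and each was represented by 1 probe of an Agilent array, chosen by probe identifier. NB4 is an established line of acute promyelocytic leukemia that carries the PML-RARA fusion, and ATPR is a derivative of all-trans retinoic acid. The Solvent group (3 arrays) received the vehicle and the ATPR group (3 arrays) received ATPR, and both were taken after 72 h. The labels give no ATPR concentration for these arrays. They state that the cells of both groups were irradiated, which the methods text does not mention. Of the 8 probes, 7 were among the 138405 probes of the array, and the CXCL1 probe (A_23_P7144) was not analysed here. The deposited files name probes by identifier only, so the pairing of each probe with its gene was taken as given, and no marker of promyelocytes or of granulocytic differentiation could be looked up.

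Chemokines are small secreted proteins that direct the migration of leukocytes. CC chemokines such as CCL2 and CCL20 attract monocytes, lymphocytes or dendritic cells, CXCL1, CXCL2 and CXCL8 attract neutrophils through CXCR2, and CXCL10 attracts activated T cells through CXCR3. IL-1 beta and IL-6 are cytokines of the acute inflammatory response, and transcription of most of these genes is controlled by NF-kB together with AP-1, C/EBP and interferon-regulated factors. Retinoids drive promyelocytes with the PML-RARA fusion toward granulocytes, cells that make several of these mediators. In RNA of a whole culture, a change in the share of expressing cells and a change in RNA per cell cannot be told apart.

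Each gene was read by a single 60-base probe on 1 spot per array, so the sequence of the probe sets what was measured. The first 30 bases of the 7 probes are shown, with capitals marking the AU-rich element core ATTTA where the shown stretch holds it.
CCL2 (A_23_P89431): gaaattgcttttcctcttgaaccacagttc
CCL20 (A_23_P17065): gtaaaaaagtcaagaacatgtaaaaactgt
CXCL8 (A_32_P87013): tagattcttataatattATTTAaatgactg
CXCL2 (A_23_P315364): caatgtgacggcagggaaatgtatgtgtgt
CXCL10 (A_24_P303091): gtcaagccataattgttcttagtttgcagt
IL1B (A_23_P79518): ggaatcaattcaatttggactggtgtgctc
IL6 (A_23_P71037): attgttgttgttaatgggcattccttcttc
The CXCL8 probe stood apart in composition. Its GC content was 16.7%, against a median of 43.3% over all probes, and 0.0267% of the array's probes had a GC content as low. It was the only probe of the 7 with ATTTA anywhere in its 60 bases, a word present in 7.57% of all probes. The GC content of the other 6 lay between 35.0% and 45.0%. No other probe of the array shared 20 consecutive bases with any of the 7, so no gene had a second, overlapping measurement. CXCL2 and CXCL1 are close paralogs, and hybridization of CXCL1 RNA to the CXCL2 probe was not tested.

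The ATPR arrays detected fewer probes than the Solvent arrays. Between 33.3% and 36.3% of probes were well above background on a Solvent array and between 26.6% and 27.4% on an ATPR array. Signals were scaled to each array's 75th percentile of the probes detected on all 6 arrays, and log2 differences are ATPR minus Solvent on this scale unless another is named. The 75th percentile was lower by 0.98 (log2) in the ATPR arrays, whereas the E1A spike-in probes, which read control RNA added to the samples, were higher by 0.36. Scaling to the spike-in therefore moves the difference of a probe measured on all 6 arrays by -1.34. The arrays came from 3 slides: slide 1 carried the whole Solvent group, slide 2 carried replicates 1 and 2 of the ATPR group, and slide 3 carried its replicate 3. No slide held both groups, and slide and treatment cannot be told apart. The label protocols do not say whether replicates were separate cultures, and the methods text speaks of independent experiments.

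Compared with the Solvent group, 5 of the 6 tested probes were called higher in the ATPR group and 0 were called lower (limma, adjusted p-value below 0.05 and a fold change of at least 2). Without adjustment of the p-value the number called lower was also 0, by limma and by the methods' t-test. Over all 44836 tested probes, 12.0% were called higher and 23.8% lower. CXCL10 and IL1B entered the test only through the ATPR group, being well above background on 0 and 2 of 3 Solvent arrays. CXCL2 entered only through the Solvent group. When a probe had to be well above background on all 6 arrays, 3 of 3 were called higher, beside 4395 of 31233 over all such probes. CCL2 and CCL20 were called higher under each of the alternative settings. CXCL10 and IL1B were also called higher wherever they were tested. The CXCL10 calls made on the processed signal rest on substitute values in the Solvent group. CXCL8 was called higher on the main scale only narrowly, CXCL2 was not called, and IL6 was not well above background on any array. On the spike-in scale, the calls were 4 higher and 1 lower, with CXCL8 no longer called and CXCL2 called lower. On that scale 2.75% of all tested probes were called higher and 63.9% lower, with a median difference of -1.38.

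**Figure D1:**
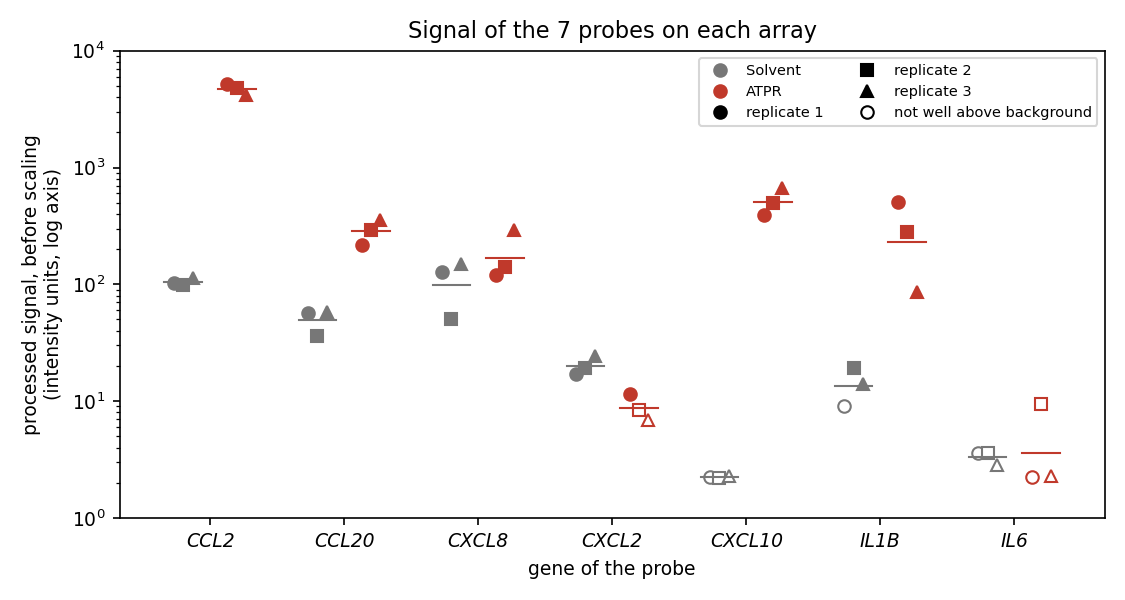
Processed signal (intensity units, log axis) of the 7 probes on each of the 3 Solvent (gray) and 3 ATPR (red) arrays before scaling between arrays, with replicates as circles, squares and triangles, geometric means as lines, and open symbols for spots not well above background. The groups of CCL2, CCL20, CXCL10 and IL1B lie apart with ATPR higher, those of CXCL2 lie apart with ATPR lower, those of CXCL8 overlap before scaling, and CXCL10 is open on all 3 Solvent arrays.

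CCL2, the main attractant of monocytes, showed the largest change among the 3 genes detected on all 6 arrays, the others being CCL20 and CXCL8. The CCL2 probe (A_23_P89431) gave a processed signal of 102, 99.0 and 114 on Solvent replicates 1, 2 and 3 and of 5158, 4826 and 4150 on ATPR replicates 1, 2 and 3. The groups were far apart, and within each group the highest signal exceeded the lowest by 1.15-fold (Solvent) and 1.24-fold (ATPR). The scaled levels (log2) were -2.14 ± 0.13 in the Solvent group and 4.32 ± 0.07 in the ATPR group (SD, n = 3 each). The difference was 6.46 (SE 0.18, 95% interval 6.04 to 6.89), an 88.2-fold increase with a limma adjusted p-value of 4.49e-06. Its rank was 85 from the top among the differences of the 44836 tested probes. On the spike-in scale the increase was 34.8-fold.

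CCL20, which attracts CCR6-bearing lymphocytes and dendritic cells, rose to a lesser degree. The CCL20 probe (A_23_P17065) gave 57.0, 36.0 and 58.0 on the Solvent arrays and 218, 294 and 359 on the ATPR arrays. Every ATPR signal was above every Solvent signal, before and after scaling. The difference was 3.51 (SE 0.30, 95% interval 2.82 to 4.20), or 11.4-fold, with a limma adjusted p-value of 0.00012. It was 2.17, or 4.50-fold, on the spike-in scale, and 1.25% of tested probes had a larger difference on the main scale.

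CXCL10, an interferon-induced chemokine, went from undetected to clearly detected. The CXCL10 probe (A_24_P303091) gave 2.23, 2.21 and 2.30 on the Solvent arrays, where it was not well above background and where the scanner software had put a substitute value in place of the signal on all 3 arrays. The ATPR signals were 394, 501 and 670, each well above background. The difference is therefore an approximate bound, and CXCL10 was at least about 123-fold higher in the ATPR group. The limma adjusted p-value of 5.73e-06 rests on the substitute values and does not bear on the bound. For this bound the mean of the ATPR group was set, array by array, against the dimmest detected probe of the Solvent group. An undetected spot can lie above that probe, so the bound is not strict. On Solvent replicate 1 the dimmest detected probe gave 8.08, and the undetected IL1B spot gave 9.01. The bound was 48.5-fold on the spike-in scale, and 14.9-fold when the raw signals were background-corrected by the normexp method, whose offset of 50 raises low values.

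CXCL8, the neutrophil attractant interleukin-8, was the least certain of the 5 increases. The CXCL8 probe (A_32_P87013) was well above background on all 6 arrays, with signals of 128, 50.7 and 149 on the Solvent arrays and 119, 140 and 290 on the ATPR arrays. Before scaling the groups overlapped, since 2 of the ATPR signals lay below the highest Solvent signal, and after scaling they did not. Solvent replicate 2 was the low array of its group and ATPR replicate 3 the high array of its group. The scaled difference was 1.75 (SE 0.49, 95% interval 0.61 to 2.90), or 3.37-fold, with a limma adjusted p-value of 0.022. On the spike-in scale it was 0.41 (95% interval -0.91 to 1.74, adjusted p-value 0.507). The call was also lost with slide as a random block (adjusted p-value 0.069), without Solvent replicate 1 (0.052) and without Solvent replicate 2 (0.073). Over all its alternatives the adjusted p-value ranged from 0.003 to 0.507.

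CXCL2, a further neutrophil attractant acting through CXCR2, did not pass the test. The CXCL2 probe (A_23_P315364) gave 17.1, 19.2 and 24.4 on the Solvent arrays, all well above background, and 11.5, 8.34 and 6.85 on the ATPR arrays, of which only replicate 1 was well above background. Every ATPR signal was below every Solvent signal before scaling, and the groups overlapped after scaling. The scaled difference was -0.23 (SE 0.23, 95% interval -0.78 to 0.32, limma adjusted p-value 0.451). On the spike-in scale it was -1.57 (95% interval -2.15 to -0.99, adjusted p-value 0.001) and was called lower, as were 63.9% of all tested probes, whose median difference there was -1.38. With normexp correction it was 0.57 (95% interval 0.31 to 0.84, adjusted p-value 0.002), short of the 2-fold threshold, where the median over all tested probes was 0.41. Its difference was negative under each scaling tried and positive only with normexp correction. Over all its alternatives the adjusted p-value ranged from 0.001 to 0.841.

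For comparison, the 82939 probes that were not well above background on any array had a median difference of -0.04 before scaling, 0.94 on the main scale and -0.41 on the spike-in scale.

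IL1B, which encodes IL-1 beta, increased strongly and varied most among the ATPR arrays of the 5 genes called higher. The IL1B probe (A_23_P79518) gave 9.01, 19.2 and 14.05 on the Solvent arrays, of which replicates 2 and 3 were well above background, and 507, 279 and 85.7 on the ATPR arrays, all well above background. The groups did not overlap. Within the ATPR group the highest signal exceeded the lowest by 5.91-fold, against 1.24-fold to 2.43-fold for the other 4 probes called higher. The scaled difference was 5.07 (SE 0.61, 95% interval 3.64 to 6.51), or 33.6-fold, with a limma adjusted p-value of 0.00057. Without ATPR replicate 3, the low array, it was 5.75, or 53.8-fold, and on the spike-in scale it was 3.73, or 13.3-fold. With normexp correction it was 2.87, or 7.32-fold, the lowest value among its alternatives. The dimmest detected probe gave 8.08, 8.22 and 8.19 on Solvent replicates 1, 2 and 3. The IL1B fold changes therefore rest on Solvent values near the detection limit. In the main test IL1B also entered only through the ATPR group, where it was high.

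IL6, which encodes the cytokine IL-6, was not detected on any array. The IL6 probe (A_23_P71037) gave 3.58, 3.56 and 2.82 on the Solvent arrays and 2.22, 9.46 and 2.26 on the ATPR arrays. None of the 6 spots was well above background, so IL6 was not tested, and no fold change is given. The values on ATPR replicates 1 and 3 were substitutes set by the scanner software, so the order of the groups cannot be read from them. When dim probes were kept in the limma fit, its adjusted p-value was 0.147. The ATPR replicate 2 spot (9.46) lay above the dimmest detected probe of its array (7.61), yet was not well above background. A change of IL6 was not detectable at this signal.

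The order of the ATPR arrays differed between probes. ATPR replicate 3, alone on its slide, had the highest signal of its group for CCL20, CXCL8 and CXCL10 and the lowest for CCL2, CXCL2 and IL1B. This order held before scaling and on the main scale. On the spike-in scale ATPR replicate 3 was the highest for CCL2 and was not the lowest for CXCL2. The spread of scaled levels in the ATPR group ranged, over the 6 tested probes, from an SD of 0.07 for CCL2 to 1.17 for IL1B (n = 3). In the Solvent group, replicate 2 was the lowest for CCL20 and CXCL8 and the highest for IL1B, before and after scaling. With slide as a random block, the correlation estimated within slides over all tested probes was 0.40.

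**Figure D2:**
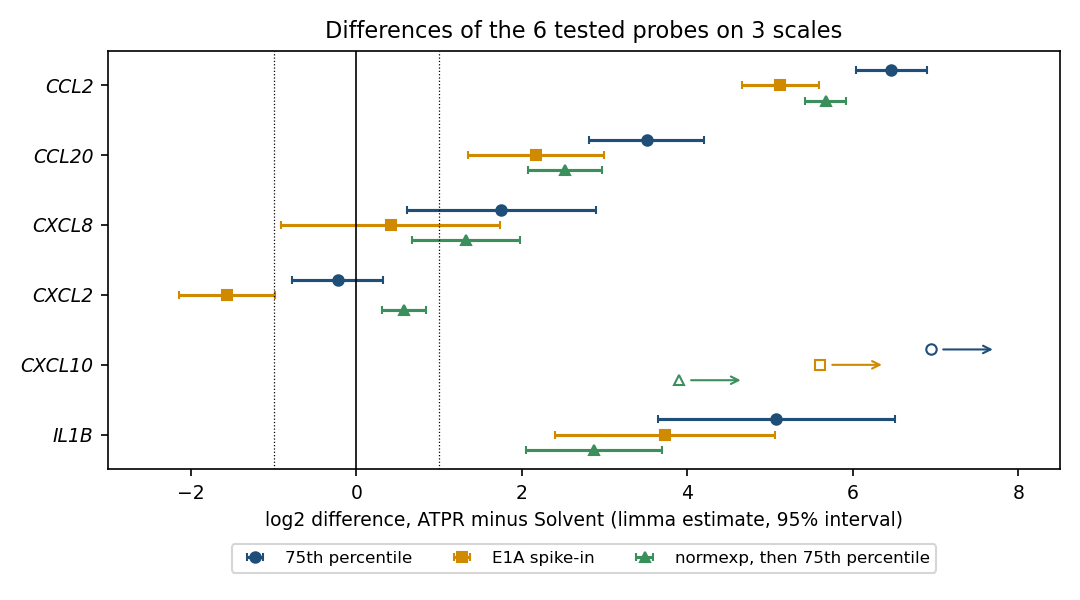
Log2 difference (ATPR minus Solvent, limma estimate with 95% interval, 3 arrays a group) of the 6 tested probes on the 75th percentile scale (blue circles), the E1A spike-in scale (orange squares) and after normexp correction (green triangles). Dotted lines mark a 2-fold change and open symbols with arrows mark the approximate lower bounds of CXCL10, which was not detected in the Solvent group. CCL2, CCL20, CXCL10 and IL1B lie above the 2-fold line on all 3 scales, while CXCL8 falls to 0.41 on the spike-in scale and CXCL2 changes sign.

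Among all tested probes the differences of these genes spread from the upper tail to the middle. The difference of IL1B had rank 193 of 44836, a place that rests on Solvent signals near the detection limit. CXCL10, with a bound only, was given no rank. CXCL8 had rank 2099, with 4.68% of tested probes above it. CXCL2 had rank 25201, near the median difference of -0.04 over all tested probes. The related neutrophil attractants CXCL8 and CXCL2 were thus far apart in this order, though no test of the difference between the 2 probes was run. CXCL2 was well above background on only 1 of 3 ATPR arrays, so its place rests on values near the detection limit. CXCL8 was not called on the spike-in scale.

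**Figure D3:**
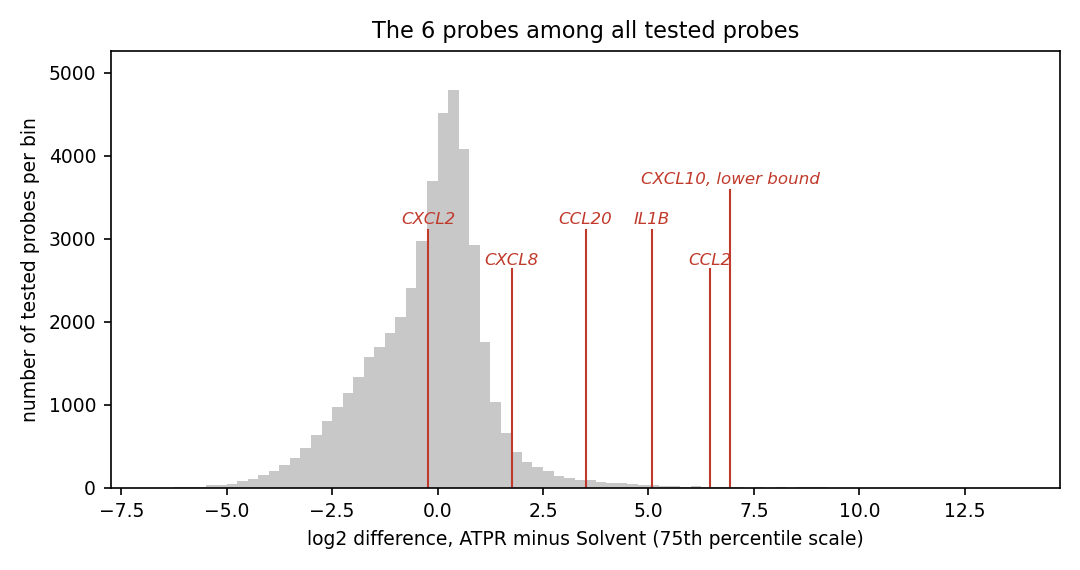
Number of tested probes (44836 in all) by log2 difference, ATPR minus Solvent, on the 75th percentile scale, with the 6 tested chemokine and cytokine probes as red lines of arbitrary height. CCL2 and IL1B lie in the far upper tail and CXCL2 at -0.23 in the bulk, and the CXCL10 line marks its approximate lower bound (123-fold).

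The promoters of these genes were searched for 7 short motif words. RefSeq sequences (GRCh38.p14) of the 250 bases before the transcript start were found for 7 of the 8 genes, all but CCL2. The promoters of the 5 tested genes with a sequence are shown, 5′ to 3′, with capitals marking matches on either strand to the NF-kB word GGANNNNCC.
CCL20 (chr2:227813592-227813841, + strand): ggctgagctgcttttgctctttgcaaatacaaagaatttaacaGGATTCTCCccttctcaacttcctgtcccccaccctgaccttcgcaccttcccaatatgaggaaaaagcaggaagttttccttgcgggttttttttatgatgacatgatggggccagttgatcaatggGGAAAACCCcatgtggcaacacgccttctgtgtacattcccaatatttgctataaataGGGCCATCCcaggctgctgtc
CXCL8 (chr4:73740319-73740568, + strand): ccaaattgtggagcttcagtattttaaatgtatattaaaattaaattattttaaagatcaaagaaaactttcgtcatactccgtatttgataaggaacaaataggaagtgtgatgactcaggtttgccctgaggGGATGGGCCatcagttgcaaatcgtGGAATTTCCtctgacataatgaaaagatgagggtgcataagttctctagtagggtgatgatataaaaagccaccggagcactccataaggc
CXCL10 (chr4:76023498-76023747, - strand): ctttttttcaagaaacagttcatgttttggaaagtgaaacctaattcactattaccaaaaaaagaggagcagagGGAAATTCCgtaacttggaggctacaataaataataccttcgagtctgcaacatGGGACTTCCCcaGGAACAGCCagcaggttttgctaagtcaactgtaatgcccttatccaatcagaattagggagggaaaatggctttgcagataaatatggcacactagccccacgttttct
CXCL2 (chr4:74099196-74099445, - strand): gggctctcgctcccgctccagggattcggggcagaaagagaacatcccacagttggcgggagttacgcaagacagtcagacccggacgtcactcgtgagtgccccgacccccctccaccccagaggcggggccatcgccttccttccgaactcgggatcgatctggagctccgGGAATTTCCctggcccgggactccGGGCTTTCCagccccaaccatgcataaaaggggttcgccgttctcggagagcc
IL1B (chr2:112836780-112837029, - strand): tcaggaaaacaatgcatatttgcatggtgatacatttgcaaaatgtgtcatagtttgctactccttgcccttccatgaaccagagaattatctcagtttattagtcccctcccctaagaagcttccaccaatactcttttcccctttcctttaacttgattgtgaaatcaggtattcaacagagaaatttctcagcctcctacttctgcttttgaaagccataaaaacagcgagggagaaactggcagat
The NF-kB word was found in 6 of 7 promoters, those of CCL20, CXCL8, CXCL1, CXCL2, CXCL10 and IL6, and in 47.7% of 35116 promoters of the same length. The IL1B promoter held none in this window. A relation between the word and the differences of the probes was not tested. The same 9 letters GGAATTTCC occurred in CXCL8, CXCL1 and CXCL2, and CXCL10 held their reverse complement, GGAAATTCC.

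Other words were rarer among all promoters. The AP-1 word TGANTCA was found in CXCL8 (6.57% of all promoters), the C/EBP word TTNNGNAA in CXCL2, CXCL10, IL1B and IL6 (33.2%) and TATAAA in CCL20 and CXCL8 (10.7%). The interferon response word GAAANNGAA was found in CXCL2 and CXCL10 (6.88%), the gamma activated word TTCNNNGAA in IL1B (6.57%) and the retinoid receptor word AGGTCA in CCL20 (12.1%). In CXCL10 a C/EBP match overlapped an NF-kB match, and others overlapped the interferon response match. A match is a description of letters, and binding was not measured.

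**Figure D4:**
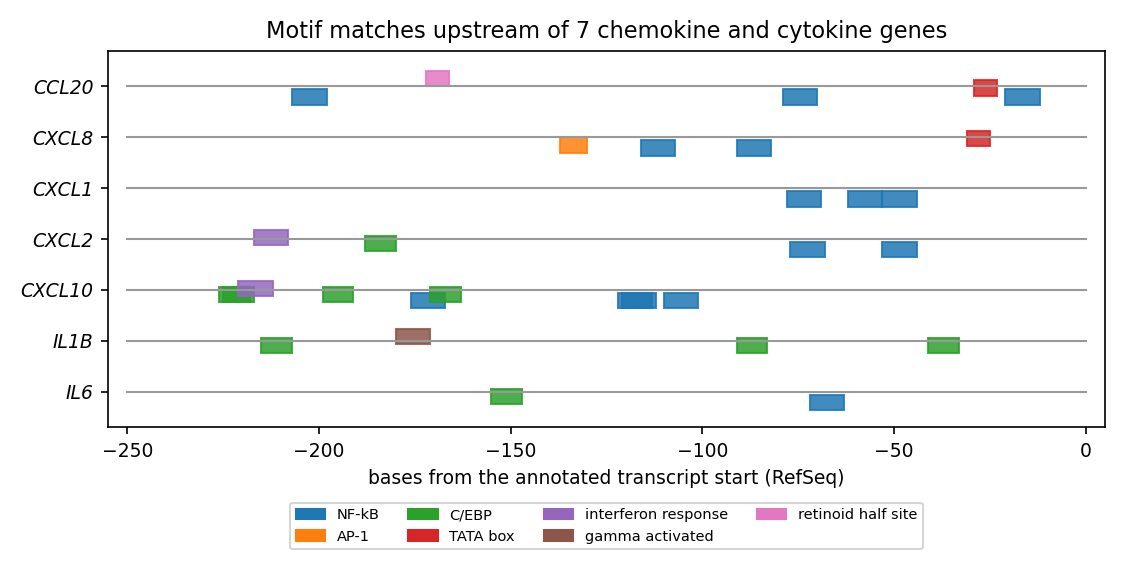
Matches to 7 motif words (colored boxes) on either strand of the 250 bases upstream of 7 genes, by distance in bases from the RefSeq transcript start. NF-kB matches (blue) occur in every gene but IL1B, and only CCL20 and CXCL8 hold a TATA box word.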

How the data were processed

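NB4 RNA was measured on Agilent arrays of 1 color (3 Solvent, 3 ATPR, 72 h). The authors deposited spot intensity files from Agilent Feature Extraction 10.7.1.1, with background flags and a p-value per spot against background, and a table of log2 values with a normalization not given in the sources used here. These log2 values deposited by the authors served as an alternative. The file headers name the build hg19, while promoters were those of RefSeq GRCh38.p14.

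From the deposited intensity, log2 of the processed signal was taken, outlier-flagged spots were dropped, replicate spots were averaged, and each array was scaled by its 75th percentile over the 31233 probes detected on all 6 arrays, where detected means well above background. No spot of the 7 probes was saturated or flagged. A probe was tested if every array of either group detected it and each group had at least 2 values. The 44836 such probes entered a two-sided limma fit (version 3.58.1, R 4.3.3, eBayes) with Benjamini-Hochberg adjustment. A probe undetected throughout a group received an approximate bound. The functions were tested on simulated data. Python 3.11.15 and matplotlib 3.10.9 were used. The array number limits the precision.

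The rule for named genes was to give all 8 probes whatever their values. The probes, motifs and settings were chosen with earlier results of these data known. Lists of further chemokines, receptors, NF-kB genes and cell type markers were planned, and could not be run without a table that pairs probes with symbols. Alternatives were 4 further scalings, normexp, the log2 table, 2 filters, outlier spots kept, another moderation, and slide and replicate blocks. Further ones were each array left out, the authors' t-test (raw and adjusted p-values), and an adjusted p-value below 0.01.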

Additional observations from a re-analysis of the deposited data

How the results depend on the processing

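Under the alternatives, CCL2 and CCL20 remained called higher throughout. CXCL10 and IL1B were also called higher wherever they were tested, but both entered the main test only through the ATPR group. The CXCL10 calls made on the processed signal rest on substitute values, so they do not measure its stability. Only 3 probes, all called higher, were tested when a probe had to be well above background on all 6 arrays, since CXCL2, CXCL10 and IL1B were then left out. Scaling to the spike-in probes gave 1 call lower, CXCL2 at -1.57, and moved CXCL8 to 0.41. The nominal IL6 difference went from 1.11 to -0.23. Neither value measures a change, since none of the 6 spots was well above background and 2 values were substitutes. CXCL2 was positive, at 0.57, with normexp correction only. CXCL8 lost its call with slide as a random block (1.86), by the authors' t-test after adjustment (1.75, adjusted p-value 0.094) and at an adjusted p-value below 0.01 (1.75). With each array left out, CXCL8 ranged from 1.33 to 2.08 and the number called higher from 4 to 5. The replicate number as a block left 5 of these probes called higher and 0 lower. Over all tested probes that block gave 5231 calls higher and 10339 lower. Same-numbered arrays did not deviate together (correlations of 0.25, -0.07 and -0.28), so the numbers were not taken as a pairing. Over all tested probes, 5363 were called higher and 10667 lower, or 1234 and 28648 on the spike-in scale, 3272 and 3144 with normexp and 34042 and 12206 without a filter on dim probes. The share of calls that were higher was thus 33.5%, 4.13%, 51.0% and 73.6%, and 49.4% among probes detected on all 6 arrays. The median difference moved from -0.04 to -1.38 on the spike-in scale, 0.41 with normexp and 0.12 with the percentile over all probes. The signal of CXCL2 and IL6 over background limits what can be said of both. The low Solvent signal of IL1B and CXCL10 likewise limits what can be said of the size of their increases.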
